A study of Mus musculus with 50 samples.

Results

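Kinesins are motor proteins that walk along microtubules, and in neurons they carry vesicles, organelles and RNA from the cell body into axons and dendrites. A typical motor is a dimer of heavy chains (the Kif genes), which hold the ATP-driven head, and in some families the heavy chains bind separate chains that hook the cargo, such as the kinesin light chains Klc1 and Klc2 or the kinesin-2 associated protein Kifap3. Other Kif genes do not carry cargo but build the mitotic spindle in dividing cells or take subunits off microtubule ends. The genes described here were the 32 genes on the Agilent array whose symbol begins with Kif and a digit, together with Klc1, Klc2 and Kifap3, out of 34496 genes and unnamed probes. They were measured by 57 probes, of which 51 took their symbol from a RefSeq accession and 6 from the probe description, and the probes of a gene were averaged.

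Hippocampal RNA was taken from male C57/BL6j mice, 5 wild-type (WT) and 5 transgenic (TG). The TG mice over-express DCLK-short, a constitutively active splice variant of doublecortin-like kinase. Each of 10 two-color arrays held 1 WT and 1 TG mouse, and every mouse was on 2 arrays, once labelled with Cy3 and once with Cy5, against 2 different partners. The promoter of the transgene and the ages of the mice are not given in the sources used here. Values are log2 of the TG over the WT signal after loess normalization within each array, so that 1 unit is a doubling.

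All TG over WT signs below follow the sample labels, and the labels of the Agilent arrays are in doubt. The study's own table of normalized channel values matched the deposited scans better after an exchange of the 5 arrays labelled WT in Cy3 with the 5 labelled TG in Cy3, so the directions given here are opposite to those of the study. For Tmem254a the log2 TG over WT was -0.99 (SE 0.05) on Agilent as labelled and 1.82 (SE 0.17) on the 1-color ABI arrays of the same genotypes. The exchange turns the sign of every Agilent TG over WT value below, leaves the Cy5 over Cy3 and ABI values as they are, and gives the measurements per mouse to other mice, while sizes and adjusted p-values over the 10 arrays stay the same. For 50 of the 57 kinesin probes, Cy3 and Cy5 signals exceeded on every array a background limit, the level below which 95% of the negative control spots lay. None of the probes of Kif11, Kif15 and Kif2c met this limit. Median raw signals over all spots lay between 109 and 169 in Cy3 and between 77.9 and 165 in Cy5, and no kinesin spot was saturated. Dclk1 itself, over all its probes, differed by -0.07 (SE 0.03, FDR 0.273, limma), with array values from -0.26 to 0.05, and whether those probes lie in the transgene's transcript was not tested.

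Among the 32 kinesin genes, 2 passed a false discovery rate (FDR) of 0.1 in the limma fit over 10 arrays, which is 6.25% of them against 8.19% of all genes tested. Kif1c was higher in TG, in a comparison where 4.06% of all genes were called higher, and Kif21b was lower, where 4.13% of all genes were called lower. At an unadjusted p under 0.05 there were 5 kinesin genes, the others being Kif2a, Kif5b and Kif3c, which is 15.6% of them against 19.1% of all genes. The 32 differences ran from -0.28 to 0.28 with a median of 0.01, beside a median of 0.00 over all genes, and 17 were above 0 and 15 below. The median size without regard to sign was 0.03 for the kinesin genes and 0.03 for all genes. By its count and its median, the group did not stand apart from all genes on the array.

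**Figure D1:**
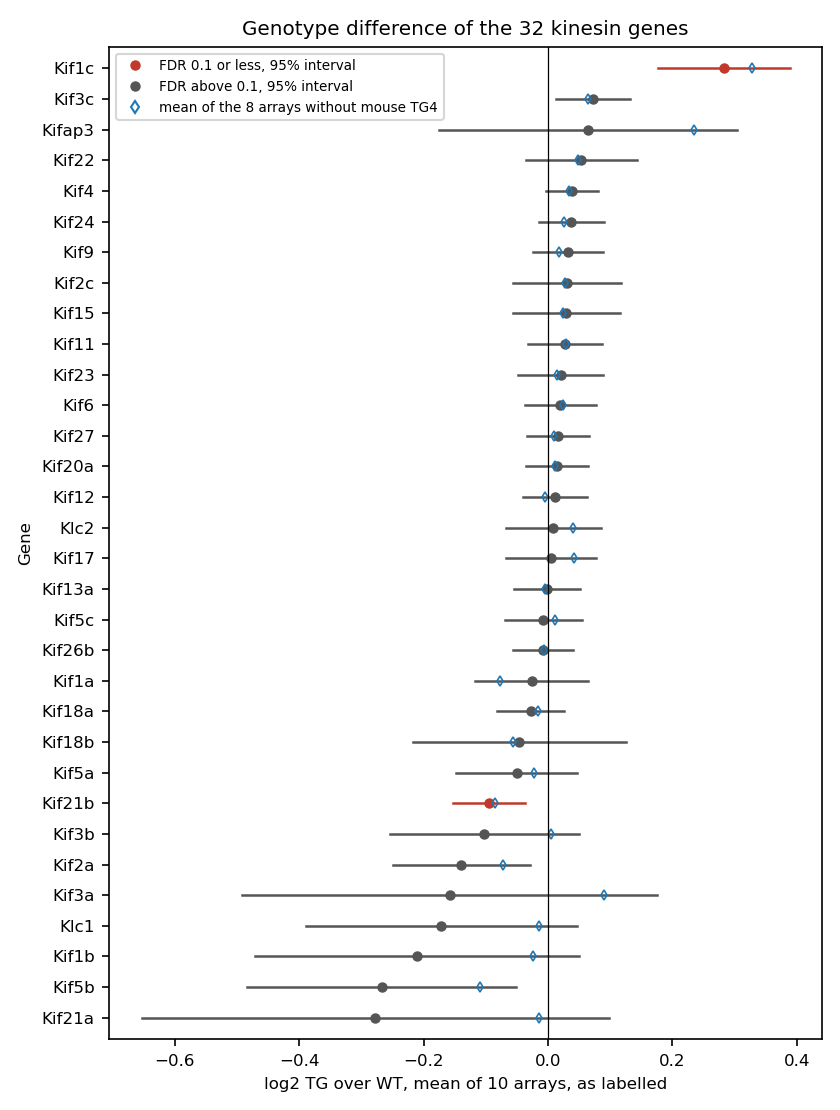
Each row is 1 of the 32 kinesin genes, the horizontal axis is the log2 TG over WT signal as labelled, dots are means of 10 arrays with 95% intervals from limma, and open diamonds are means of the 8 arrays that do not hold mouse TG4. Kif1c and Kif21b, in red, passed FDR 0.1, and the wide intervals of Kif21a, Kif3a, Kif5b, Kif1b, Klc1 and Kifap3 go with diamonds that lie away from the dots.

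A pair of arrays stood apart for these genes. The arrays labelled WT1/TG4 and TG4/WT3 share mouse TG4, in Cy5 on the former and in Cy3 on the latter. On both, 7 kinesin genes (21.9%) were below -0.5, against 3.58% of all genes tested. All 7 had a probe above the limit of the negative controls, whereas all genes tested include unnamed probes and probes below that limit. These 7, chosen after their values were seen and so given without a test, were Kif5b, Klc1, Kif3a, Kif3b, Kifap3, Kif1b and Kif21a. Their mean over the 2 arrays had a median of -0.90, while their means over the other 8 arrays lay between -0.11 and 0.24. The means of the other 25 kinesin genes on these 2 arrays lay between -0.41 (Kif2a, just outside the limit) and 0.18. No kinesin gene was below -0.5 on any of the other 8 arrays. TG4 was the lowest of the 10 mice for all 7 genes, and after the exchange of arrays the same measurements belong to mouse WT5, which is then the lowest for all 7.

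Markers of other cell types moved on these arrays as well. Of 5 oligodendrocyte markers, 3 (Mbp, Mog and Mag, genes of the myelin sheath) were below -0.5 on both arrays of TG4, and the list's median there was -0.71 against 0.02 on the other 8. The other members of that list did not follow, with averages on the arrays of TG4 of 0.65 for Cnp, a myelin enzyme, and -0.06 for Mobp, a myelin protein. The summed level of that list was 4000 in TG4, the lowest of 4000 to 6097 in the TG mice, and 5379 to 6852 in the WT mice. Among 8 neuron markers 1, Snap25, was below -0.5 on both arrays, with an average of -1.41, and the list's median was -0.03. In the opposite direction, Rbfox3 and Tubb3 averaged 0.72 and 0.85 there. The summed level of the neuron list was 12280 in TG4, the lowest of 12280 to 16870 in the TG mice, and 15700 to 17110 in the WT mice. None of the 5 astrocyte and none of the 6 microglia markers was below that limit. The part of cell composition or RNA quality in the values of TG4 was not tested, and in whole tissue fewer cells of a type and less RNA per cell cannot be told apart.

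**Figure D2:**
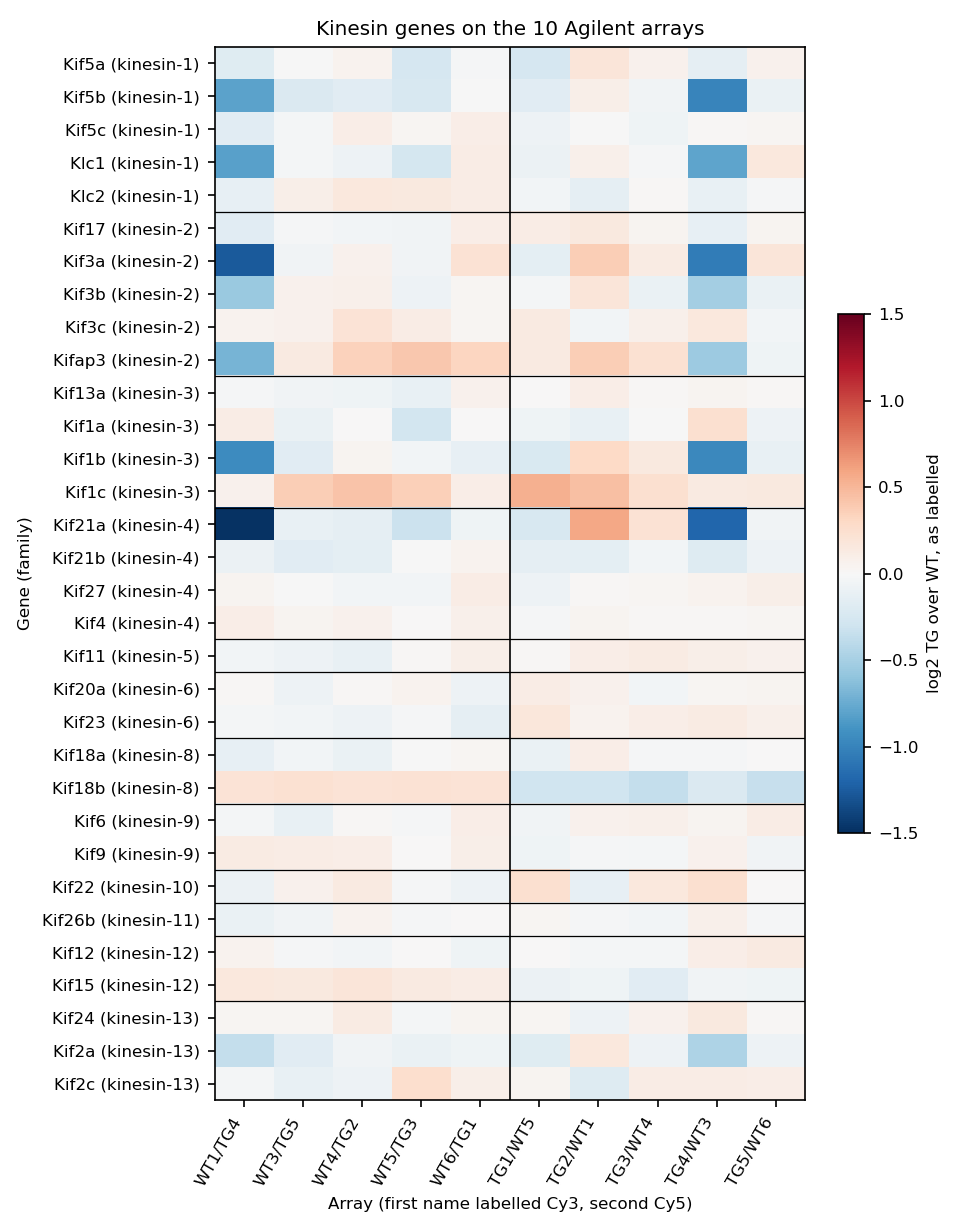
Rows are the 32 kinesin genes grouped by family, columns are the 10 arrays named by the mouse labelled with Cy3 and then Cy5, and color is log2 TG over WT as labelled (red above 0, blue below). The dark blue cells stand in the WT1/TG4 and TG4/WT3 columns, Kif1c is above 0 in all 10 columns, and Kif18b changes color at the line between the dye orientations.

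The promoters of 3 kinesin genes are shown for the gene of a single sign on all arrays (Kif1c) and for the lowest 2 genes on the arrays of mouse TG4 (Kif21a and Kif3a). They are RefSeq sequences of build GRCm38.p6, from 250 bases before to 50 bases after the start, 5′ to 3′, with the GC box GGGCGG, or CCGCCC on the other strand, in capitals; matches may overlap each other.
Kif1c (chr11:70700298-70700597, forward strand): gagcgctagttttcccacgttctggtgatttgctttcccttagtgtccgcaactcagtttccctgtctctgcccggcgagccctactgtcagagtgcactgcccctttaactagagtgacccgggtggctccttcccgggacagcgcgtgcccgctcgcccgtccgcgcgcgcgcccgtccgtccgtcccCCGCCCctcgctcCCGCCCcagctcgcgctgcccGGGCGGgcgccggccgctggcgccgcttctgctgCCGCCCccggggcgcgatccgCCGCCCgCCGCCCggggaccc
Kif21a (chr15:91049902-91050201, reverse strand): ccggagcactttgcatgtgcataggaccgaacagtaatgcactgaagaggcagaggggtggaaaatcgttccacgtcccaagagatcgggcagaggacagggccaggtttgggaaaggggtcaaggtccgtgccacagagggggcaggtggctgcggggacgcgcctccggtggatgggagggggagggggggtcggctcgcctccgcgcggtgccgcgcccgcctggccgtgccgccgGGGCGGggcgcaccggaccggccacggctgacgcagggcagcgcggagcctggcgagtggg
Kif3a (chr11:53567119-53567418, forward strand): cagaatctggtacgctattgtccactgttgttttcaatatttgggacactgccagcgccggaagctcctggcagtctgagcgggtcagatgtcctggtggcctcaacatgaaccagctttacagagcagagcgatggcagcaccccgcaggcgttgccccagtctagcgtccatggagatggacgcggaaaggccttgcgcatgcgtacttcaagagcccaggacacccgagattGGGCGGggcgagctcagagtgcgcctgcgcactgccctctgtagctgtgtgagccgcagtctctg
Kif1c held 6 such matches, Kif21a 1 and Kif3a 1. Of the 27 kinesin genes with a promoter in the table, 19 held a match in at least 1 promoter, while 35.7% of all 32851 promoters of that length held one. The former counts genes, some of them with several promoters, and the latter counts single promoters, so the shares are not alike. The 7 genes low on the arrays of TG4 were picked by those values, and the 6 of them that are listed all held a match. A link between the GC box and the low values was not tested. A match is a string of letters and not a measured binding site.

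Kinesin-1 is the main motor of axonal transport, a tetramer of Kif5 heavy chains and light chains that bind cargo adaptors. None of its 5 measured genes passed FDR 0.1. Kif5b, the heavy chain made in most tissues, ran from -0.99 to 0.09 over the 10 arrays with a median of -0.17, and was below 0 on 9 of them. Per mouse, its log2 level was 9.78, 9.92, 9.85, 9.91 and 9.76 in WT1, WT3, WT4, WT5 and WT6 and 9.76, 9.83, 9.66, 9.01 and 9.61 in TG1 to TG5. TG4 was the lowest mouse, and TG5 and TG3 were also lower than all WT mice. TG1, at 9.758, lay just below the lowest WT mouse (WT6, 9.759), and TG2 lay among the WT mice. The difference over 10 arrays was -0.27 (SE 0.10, 95% interval -0.48 to -0.05, FDR 0.156), and without the arrays of TG4 it was -0.11 (SE 0.04, FDR 0.180). Of its 2 probes, 1 passed the test by itself, at -0.28 (SE 0.08, FDR 0.0650), while the other had -0.25 (SE 0.15, FDR 0.425).

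The neuronal heavy chains Kif5a and Kif5c were closer to 0. Kif5a ran from -0.26 to 0.18 with a median of -0.01 and a mean of -0.05 (SE 0.04, FDR 0.642). Its only probe had low raw medians, 90.7 in the WT and 93.5 in the TG channels, which limits what its ratio can show. Kif5c ran from -0.17 to 0.10 with a mean of -0.01 (SE 0.03, 95% interval -0.07 to 0.05, FDR 0.945). The light chain Klc1, whose product joins the heavy chains to cargo, was at -0.81 and -0.79 on the arrays of TG4 and between -0.26 and 0.16 on the rest. Its mean was -0.17 (SE 0.10, FDR 0.402), and -0.01 (SE 0.04, FDR 0.958) without TG4. Levels per mouse were 11.24, 11.21, 11.34, 11.5 and 11.17 in the WT mice and 11.43, 11.23, 11.28, 10.38 and 11.28 in the TG mice, and all TG mice but TG4 lay within the WT range. The low values were in 1 of its 2 probes, which averaged -1.49 on the arrays of TG4, while the other averaged -0.12. The light chain Klc2 ran from -0.13 to 0.16 with a mean of 0.01 (SE 0.03, FDR 0.95).

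Kinesin-2 carries cargo in axons and moves material within cilia, as a trimer of Kif3a, Kif3b or Kif3c and Kifap3, or as a dimer of Kif17, which carries NMDA receptor subunits in dendrites. None of the 5 genes passed FDR 0.1 over 10 arrays. Kif3a was at -1.26 and -1.04 on the arrays of TG4 and between -0.15 and 0.37 on the other 8. Its levels per mouse were 8.92, 8.95, 8.92, 9.19 and 8.91 in the WT mice and 9.08, 9.06, 9.14, 7.74 and 9.08 in the TG mice. The TG mice other than TG4 lay within the WT range, above 4 of the 5 WT mice. The mean difference was -0.16 (SE 0.15, FDR 0.682) over 10 arrays and 0.09 (SE 0.05, FDR 0.495) over 8, so its sign rested on that mouse. Kif3b, the usual partner of Kif3a, ran from -0.56 to 0.18 with a mean of -0.10 (SE 0.07, FDR 0.501), and was at 0.01 (SE 0.04) without TG4. Kif3c, a heavy chain of neurons, did not follow them, with 0.05 and 0.15 on the arrays of TG4. It was above 0 on 8 of 10 arrays, with a mean of 0.07 (SE 0.03, 95% interval 0.01 to 0.13, FDR 0.167). Kif17 ran from -0.17 to 0.15 with a mean of 0.00 (SE 0.03, FDR 0.971). Its probes had low signals, with raw medians from 71.6 to 88.1 in the WT channels.

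Of the 18 kinesin genes with several probes, Kifap3 had the probe means that lay farthest apart. On chromosome 1 in the array annotation, the probe at 163700556 to 163700615 was higher in TG on 9 arrays, from -0.25 to 1.47, with a mean of 0.77 (SE 0.17, FDR 0.0362). The probe at 163833390 to 163833449 had -1.99 and -1.95 on the arrays of TG4 and between -0.74 and 0.16 on the others, with a mean of -0.53 (SE 0.23, FDR 0.231). A further probe at 163834297 to 163834356 stayed between -0.21 and 0.14, with a mean of -0.05 (SE 0.04, FDR 0.548). All 3 probes are assigned to the same RefSeq transcript, and the second was marked as non-uniform on 2 arrays. Averaged, the gene was at -0.70 and -0.55 on the arrays of TG4 and between -0.07 and 0.41 on the rest. Levels per mouse were 9.78, 9.77, 9.65, 9.60 and 9.79 in the WT mice and 9.86, 10.02, 9.92, 9.19 and 9.92 in the TG mice, so that TG4 lay below and the other 4 TG mice above all WT mice. Its mean of 0.06 (SE 0.11, FDR 0.856) became 0.24 (SE 0.05, FDR 0.0527) without TG4, and it was then 1 of 2 kinesin genes called, beside Kif1c, in a fit that called 4.74% of all genes. TG4 was singled out after its values were seen, which limits that call. Without TG4 the probes averaged 0.95, -0.17 and -0.07 in the order above, so the difference came from the first.

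Kinesin-3 motors are monomers or dimers that carry synaptic vesicle precursors, mitochondria and dense core vesicles. Kif1c, a member found in most tissues that moves vesicles between Golgi, periphery and, in neurons, axons, was the kinesin gene with the smallest p. Its log2 TG over WT was 0.07, 0.37, 0.43, 0.36 and 0.10 on the arrays labelled WT in Cy3 and 0.53, 0.45, 0.24, 0.14 and 0.15 on those labelled TG in Cy3. It was above 0 on all 10 arrays, 1 of 32 kinesin genes with a single sign throughout against 2.29% of all genes. The mean was 0.28 (SE 0.05, 95% interval 0.18 to 0.39), a 1.22-fold difference with FDR 0.0160 and rank 198 of the genes tested. Per mouse, its level was 8.34, 8.25, 8.09, 7.87 and 8.10 in WT1, WT3, WT4, WT5 and WT6 and 8.17, 8.57, 8.35, 8.54 and 8.43 in TG1 to TG5. TG1 lay below 2 WT mice, so the groups overlapped, with means of 8.13 (SD 0.18, n = 5) and 8.41 (SD 0.16, n = 5). With the mouse as the replicate the limma p was 0.0161 and the FDR 0.422. TG4 was not low for this gene, and the difference without its arrays was 0.33 (SE 0.05, FDR 0.0210).

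The difference of Kif1c came from 1 of its 2 probes. The probe at chr11:70429519-70430157 in the array annotation, whose genome build the files do not name, was higher in TG on all 10 arrays, from 0.21 to 1.06, with a mean of 0.55 (SE 0.08, FDR 0.0137). Its raw signal had a median of 820 in the WT channels and 1372 in the TG channels. The probe at chr11:70452145-70453903 ran from -0.08 to 0.10 with a mean of 0.02 (SE 0.03, FDR 0.782), and raw medians of 82.5 and 85.7. The gene lies on the forward strand, so the probe that differed is the one on the 5′ side. Both passed the limit set by the negative controls on all 10 arrays, but the low signal of the second limits what its ratio can show. Whether the probes mark different transcripts was not tested.

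**Figure D3:**
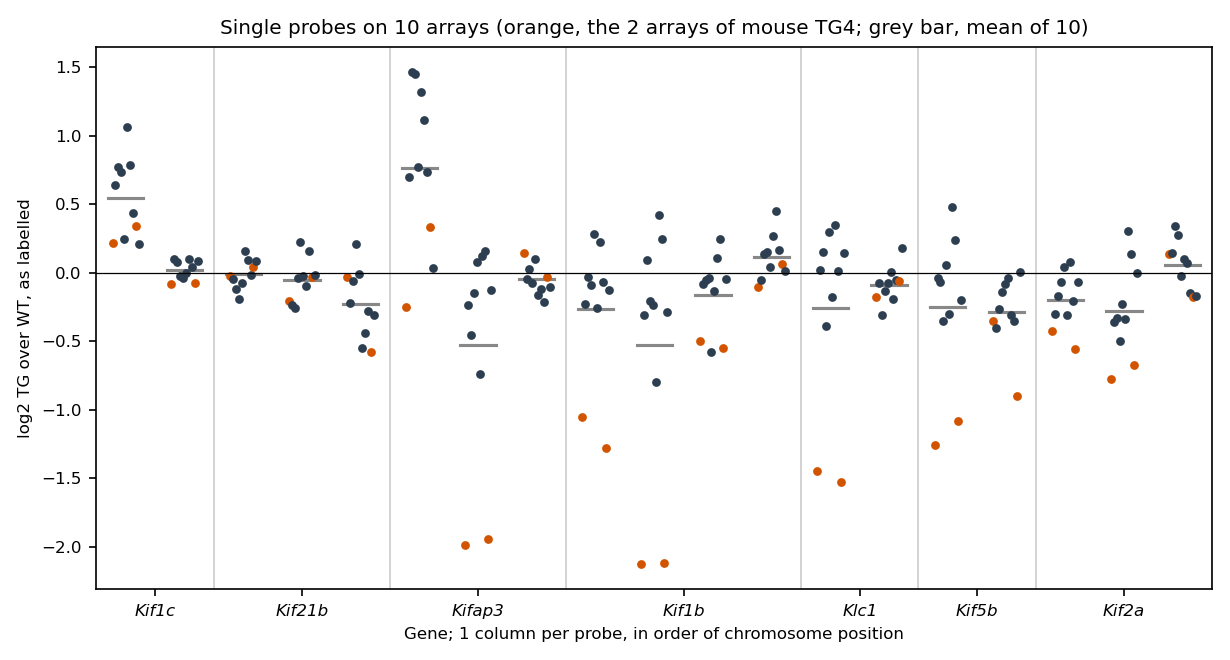
Each column of points is 1 probe, with 10 arrays as points and their mean as a grey bar, for 7 kinesin genes; the vertical axis is log2 TG over WT as labelled, and the 2 arrays of mouse TG4 are orange. Probes of the same gene part from each other: 1 Kif1c probe averaged 0.55 and the other 0.02, and the 3 Kifap3 probes averaged 0.77, -0.53 and -0.05.

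Kif1b, which carries mitochondria or synaptic vesicle precursors depending on its splice form, had 2 probes for each of 2 RefSeq transcript variants. The probes of variant 2 averaged -1.17 and -2.12 on the arrays of TG4, and those of variant 1 averaged -0.52 and -0.02. Their raw WT medians were 2924 and 338 for variant 2, but only 97.5 and 69.2 for variant 1. Signals that low leave little room for a fall, so these values do not compare the variants. On the other 8 arrays the 4 probe means lay between -0.13 and 0.15. Its levels per mouse were 8.08, 8.11, 8.13, 8.32 and 8.22 in the WT mice and 8.13, 8.29, 8.25, 7.20 and 7.94 in the TG mice, TG4 and TG5 being the lowest of the 10. Averaged over the probes the gene was at -0.95 and -0.97 on the arrays of TG4 and between -0.23 and 0.30 on the rest, with a mean of -0.21 (SE 0.12, FDR 0.386) that became -0.02 (SE 0.06, FDR 0.933) without them. Kif1a, the neuronal carrier of synaptic vesicle precursors, ran from -0.27 to 0.24 with a mean of -0.03 (SE 0.04, FDR 0.840). Unlike Kif1b it was above 0 on both arrays of TG4, at 0.11 and 0.24. Kif13a, a carrier of membrane proteins from the trans-Golgi network, had a mean of 0.00 (SE 0.02, 95% interval -0.05 to 0.05, FDR 0.989). Kif13b is on the array as a predicted transcript outside the symbol rule, and its probe had -0.02 (SE 0.03, FDR 0.708).

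Kinesin-4 includes motors of axons and dendrites that slow or pause microtubule growth. Kif21b, a dendritic and axonal member, was called lower in TG. Its array values were -0.09, -0.16, -0.14, -0.01 and 0.05 with WT labelled in Cy3 and -0.14, -0.15, -0.04, -0.19 and -0.08 with TG labelled in Cy3. It was below 0 on 9 of 10 arrays, with a mean of -0.10 (SE 0.03, 95% interval -0.15 to -0.04, FDR 0.0694), a 1.07-fold difference. Levels per mouse were 7.29, 7.36, 7.32, 7.38 and 7.36 in the WT mice and 7.37, 7.15, 7.29, 7.23 and 7.21 in the TG mice. TG1 lay among the WT mice and the other 4 TG mice lay below all 5 WT mice, and the FDR per mouse was 0.647. No probe of Kif21b passed the test alone, the nearest having -0.23 (SE 0.07, FDR 0.116) and the others -0.05 and -0.01. The spot of the nearest probe was marked as non-uniform by the scanner software on 1 array, and leaving such spots out gave the gene an FDR of 0.121. Without the arrays of TG4 the difference was -0.08 (SE 0.03, FDR 0.190).

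Kif21a, a close relative that keeps axonal microtubules from overgrowing, had the widest range of the 32 genes. It was at -1.48 and -1.18 on the arrays of TG4 and between -0.32 and 0.58 on the others. Its levels were 7.68, 7.91, 8.0, 8.19 and 7.94 in the WT mice and 7.97, 7.95, 8.01, 6.56 and 7.83 in the TG mice, so that all but TG4 overlapped. The mean was -0.28 (SE 0.17, FDR 0.441), and -0.01 (SE 0.09, FDR 0.978) without TG4. Another probe, described as Kif21a but holding no RefSeq accession and so outside the rule, averaged -0.10 on the arrays of TG4. Kinesin-13 motors take tubulin off microtubule ends, and Kif2a, the neuronal member that trims axon branches, was below 0 on 9 of 10 arrays. It ran from -0.47 to 0.15 with a mean of -0.14 (SE 0.05, 95% interval -0.25 to -0.03, FDR 0.146), and without TG4 it was at -0.07 (SE 0.04, FDR 0.389). Of its 3 probes, 1 passed the test alone at -0.20 (SE 0.06, FDR 0.0907), and the others had -0.28 (SE 0.10, FDR 0.143) and 0.06 (SE 0.05, FDR 0.665). Their raw WT medians were 587, 234 and 79.5 in that order, and the low signal of the last limits what its ratio can show.

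**Figure D4:**
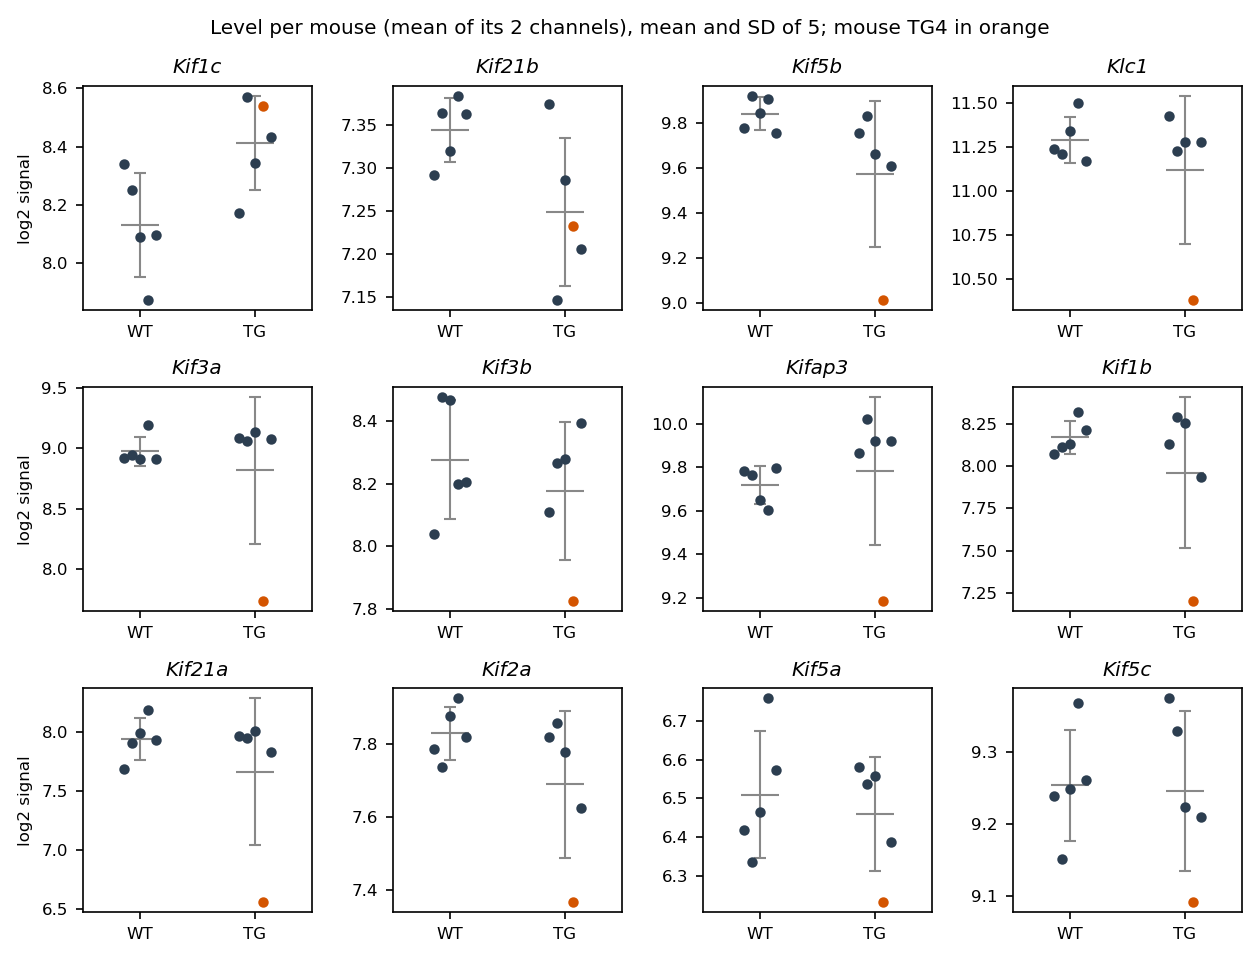
Points are the log2 signals of single mice (mean of the Cy3 and Cy5 channel of each mouse) for 12 kinesin genes, with the mean and SD of 5 WT and 5 TG mice as labelled and mouse TG4 in orange; each panel has its own vertical axis, which does not start at 0. TG4 lies below every other mouse for Kif5b, Klc1, Kif3a, Kif3b, Kifap3, Kif1b, Kif21a, Kif2a, Kif5a and Kif5c, and not for Kif1c or Kif21b.

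Mitotic kinesins act in dividing cells, which are few in the adult hippocampus outside the dentate gyrus. None of the 10 measured genes of that list passed FDR 0.1, and their differences ran from -0.05 to 0.05 with a median of 0.03. Kif11, the motor that pushes the spindle poles apart, had a mean of 0.03 (SE 0.03, 95% interval -0.03 to 0.09, FDR 0.690). No WT or TG channel was well above background for 1 of its 2 probes. Kif4, a motor of the spindle midzone and of chromosomes, was above 0 on 9 of 10 arrays with a mean of 0.04 (SE 0.02, FDR 0.300). Kif20a and Kif23, which act when dividing cells separate, had means of 0.01 (SE 0.02, FDR 0.842) and 0.02 (SE 0.03, FDR 0.831). The probes of Kif4 and Kif23 had low signals, with raw WT medians from 59.2 to 79.7. Of the dividing cell markers, 0 of 7 measured passed the limma test. The remaining 11 kinesin genes are Kif2c, Kif15, Kif18a, Kif18b and Kif22 of the mitotic list and Kif6, Kif9, Kif12, Kif24, Kif26b and Kif27, some of which are known from cilia. Their means lay between -0.05 and 0.05 with no FDR under 0.455, and their single array values lay between -0.36 and 0.26.

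The Cy5 and Cy3 channels differed for 4 of the 32 genes at FDR 0.1, or 12.5%, against 23.9% of all genes. Kif18b had a log2 Cy5 over Cy3 of 0.26 (SE 0.02), and so its log2 TG over WT was between 0.20 and 0.23 on the 5 arrays labelled WT in Cy3 and between -0.36 and -0.22 on the others. Kif15 had 0.12 (SE 0.02), Kif9 had 0.05 (SE 0.02) and Kif23 had -0.08 (SE 0.02). Each mouse was labelled once with either dye, and Kif1c and Kif21b were not among the 4, with -0.02 (SE 0.05) and 0.02 (SE 0.02). The value of Kif21b averages probes that moved with dye orientation in opposite directions. Its probe nearest to passing lay between -0.22 and 0.21 with WT labelled in Cy3. With TG labelled in Cy3 that probe lay between -0.58 and -0.28. Another probe lay between -0.19 and -0.02 and between -0.01 and 0.16. On the remaining probe the orientations overlapped.

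With 1 value per mouse, none of the 32 genes passed FDR 0.1 in limma, where 0.0841% of all genes did, and the smallest FDR of a kinesin gene was 0.422, that of Kif1c. At an unadjusted p under 0.05 there was 1 kinesin gene, against 8.19% of all genes. No kinesin gene had WT and TG mice that did not overlap, against 2.12% of all genes. After the exchange of arrays again none passed, in a fit that called 0.0319% of all genes, and Kif1c and Kif21b had unadjusted p of 0.0106 and 0.0244. The fit over arrays counts both arrays of a mouse as separate observations, and the fit over mice does not. Tested as single probes, 4 of the 57 (7.02%) passed FDR 0.1, 1 each for Kif1c, Kif2a, Kif5b and Kifap3, against 7.42% of all probes. Of the 18 genes with more than 1 probe, 9 had all probe means on the same side of 0 and 9 did not. Some of these means lay close to 0 at low signal, so that their signs say little. The probes of Kif17, for example, had -0.007, 0.02 and -0.003.

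Other genes of the pathway gave the following values. Of 36 probes described as kinesins but outside the symbol rule, 2 passed FDR 0.1, 1 in each direction, against 7.42% of all probes. All 36 lay between -0.20 and 0.14. Of the 7 measured kinesin genes with other symbols, such as the Kifc genes and Klc3, none passed, and Kifc3, a motor that walks toward microtubule minus ends, had a mean of -0.011 (SE 0.05, FDR 0.951). Its 2 probes averaged -0.75 and 0.36 on the arrays of TG4. Of 31 measured genes for adaptors and cargo linkers, 4 (12.9%, against 8.19% of all genes) passed, 1 higher and 3 lower. In the limma fit with 1 value per mouse none of the 4 passed, with FDR from 0.288 to 0.619. Clstn2, a calsyntenin, ran from -0.54 to 0.14 with a mean of -0.34 (SE 0.06, FDR 0.0205). Map7, a microtubule protein that recruits kinesin-1, ran from -1.55 to 0.02 with a mean of -0.53 (SE 0.16, FDR 0.0801), and it was at -1.5 on average on the arrays of TG4 and -0.29 on the others. Lin7c, which links Kif17 to its cargo, had -0.11 (SE 0.03, FDR 0.0577), and its relative Lin7b had 0.38 (SE 0.08, FDR 0.0339). On the arrays of TG4, 6 of the 31 genes (19.4%, against 3.58% of all genes) were below -0.5 on both, among them the cargo proteins App and Clstn1 with averages of -1.94 and -1.74. Snap25, described above as a neuron marker, is on this list too and is 1 of the 6.

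On the 1-color ABI arrays, 1 probe shared its accession with a kinesin probe of the Agilent array, that of Kif24, a kinesin-13 of the centriole. Its quantile normalized log2 signal ran from 7.65 to 9.84 in 5 WT mice and from 8.66 to 9.42 in 5 TG mice, with a difference of 0.46 (SE 0.38, 95% interval -0.39 to 1.3). The FDR was 1.00 in limma, where 0.00303% of all ABI probes were called, and 1687 had an unadjusted p under 0.05. On Agilent, Kif24 had 0.04 (SE 0.02, 95% interval -0.01 to 0.09).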

How the data were processed

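Per the file headers, the Agilent files hold linear intensity values of both channels (Feature Extraction) and a log10 ratio of red over green, the latter used in an alternative. The ABI table was deposited as raw intensity per probe. Illumina columns could not be tied to mice and were left out, and the other platforms were not analysed here. Following the study's methods, mean pixel intensities without background correction were loess normalized within arrays (limma 3.58.1, R 4.3.3), control spots were left out, and spots were averaged by probe and probes by gene. The log2 TG over WT values were tested with limma's moderated test against 0, two-sided, with Benjamini-Hochberg adjustment over 34496 genes and unnamed probes, at FDR 0.1. For the test per mouse, channels were also scaled between arrays (Aquantile), averaged over the 2 channels of each mouse, and compared 5 against 5. ABI signals were quantile normalized on the log2 scale, since the vsn package of the study's methods was not at hand.

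Named genes were those called, those with 1 sign on all arrays and a list of neuronal and mitotic motors, with Kif13b outside the symbol rule. The members and lists were chosen with earlier results of these data known. One oligodendrocyte marker is not reported here, and it was left out of that list's values. Background correction, pixel statistic, normalization, centring, probe choice, low-signal filter, blocks, outlier spots and left-out arrays or mice were varied. The fits over arrays and over mice were tested on simulated data. The number of arrays limits the precision, and whether the mice of a genotype are independent of litter is not given in the sources used here. Probe positions are those of the array annotation, and no probe sequences were used.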

Additional observations from a re-analysis of the deposited data

Results flagged for a closer look

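For each of the 32 kinesin genes, the highest and lowest mouse of each genotype was set against the other 4 mice, by its gap to the nearest mouse over the range of the group. In 64 groups of 5 mice, 8 gaps were above the 95% limit of 0.71, a limit that chance passes in about 1 of 20 independent groups. These groups are the same mice over 32 genes and are not independent, so the count of 8 cannot be set against that rate. Mouse TG4 was the low mouse in 5 of them, with a gap of 0.944 of the range for Kif3a, 0.876 for Kif21a, 0.809 for Klc1, 0.808 for Kifap3 and 0.729 for Kif5b. Mouse WT5 was the high mouse for Kif3a, at 0.877, and for Kif18a, at 0.758. Mouse TG2 was the low mouse for Kif2c, at 0.751, a gene whose probe did not pass the limit of the negative controls on all arrays. TG4 and WT5 are the mice that trade measurements when the arrays are exchanged. The 5 genes of TG4 are among the 7 described above, and the cause of these gaps was not tested.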

How the results depend on the processing

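Kif1c was called under all 33 other settings that keep the labels, at 0.24 to 0.33 (FDR 0.00484 to 0.0997). Kif21b had an FDR above 0.1 in 17 of them (-0.13 to -0.08, FDR up to 0.592), and it also missed the stricter limit of FDR 0.05. The count of kinesin genes called, 2, was 1 (Kif1c) with median centring, with the scanner's log ratio and at FDR 0.05, and 1 with non-uniform spots left out, a setting chosen after seeing the data. It was 4 with robust regression, which adds Kif2a and Kif5b, and 4 with single probes. With a replicate block for the WT mouse it was 5, adding Kif2a, Kif3c and Kif5b (estimated correlation -0.25), and with a replicate block for the TG mouse 3 (-0.16). Over all genes these fits called 5189 and 4233, and median centring called 1174, against 2826. Equal mouse numbers do not pair a WT with a TG mouse. Leaving out arrays or mice gave counts from 1 to 2. It was 1, Kif1c, without array WT1/TG4, WT3/TG5, WT4/TG2, TG1/WT5 or TG4/WT3, and without mouse WT1, WT3, WT4, WT5, TG2, TG3 or TG5. Without mouse WT3 or WT4, 377 and 335 of all genes were called. The median of the kinesin genes was -0.042 with median centring. Exchanging the arrays reversed Kif1c to -0.28 and Kif21b to 0.10. The genes below -0.5 on both arrays of TG4 were 7, and 4 to 7 under the settings that change the log ratios. None passed per mouse or on ABI under any setting. No slide or scan block was run, since each slide held 1 array and all were scanned on the same day, and the dye term stands for the runs of slide numbers in the file headers, which coincide with dye orientation. Signals near the negative controls limit Kif11, Kif15 and Kif2c. Low raw signals also limit others, among them Kif5a, Kif17, Kif4, Kif23 and Kif18a.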
